A study of Mus musculus with 4 samples.

Results

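B cells are lymphocytes that carry a surface immunoglobulin as their antigen receptor. They were a minority of the leukocytes recovered from the tumours. A droplet barcode was taken as a B cell when it held at least 2 unique molecular identifiers (UMIs, each standing for 1 captured RNA molecule) of Cd79a, Cd79b and Ms4a1 together. At least 1 of these had to be Cd79a, and no UMI of Cd3d, Cd3e, Cd3g, Siglech or Csf1r and at most 1 of Lyz2 was allowed. These UMI counts chose the cells, so the levels of those genes are given only as a description. Of 7581 cells kept in all, 340 were B cells, 302 of 4370 in the wild-type library and 38 of 3211 in the knock-out library.

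The leukocytes came from B16 melanomas, a transplantable tumour of C57BL/6 mice, grown for 12 days in the flank of male C57BL/6 mice. The hosts were wild-type (WT) or labelled ATPIF1 knock-out (KO), Atpif1 encoding a small protein that inhibits the ATP synthase of mitochondria. The labels do not describe the deleted allele, and tumour cells in both groups came from the same injected line, which does not carry the genotype of the mice. Per genotype the tumour suspensions were pooled (6 mice are stated, without saying whether per genotype), sorted for CD45 and made into 1 RNA library of the 5′ kind and 1 T cell receptor library each. With 1 pooled library per genotype there is no replicate, no difference was tested, and ranges in parentheses after a value are its 95% interval from counting alone.

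The B cell receptor joins a membrane immunoglobulin, with heavy and light chains, to the signalling pair encoded by Cd79a and Cd79b. A mature B cell that has not met antigen carries IgM and IgD from the same rearranged heavy chain gene and recirculates between blood and lymphoid follicles. After activation it can switch to IgG or IgA, enter a germinal centre or become a plasma cell. In tumours B cells are known as antigen-presenting cells and as a source of antibody.

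The genes whose level most set the WT B cells apart from the other leukocytes, outside the genes of the gate, were searched for known B cell motifs in the 250 bases before their start. Of 23 genes (the 20 with the highest ratio and the 3 that sum in the gate), 16 had a promoter in the RefSeq table of GRCm38.p6, with 19 promoters in all. The octamer ATGCAAAT, the site of the OCT factors that work with the coactivator encoded by Pou2af1, was found on either strand in 1 of the 19 and in 1.60% of all 32851 promoters in the table. The palindrome of TCCC, any 2 bases and GGGA, the core of the site of the EBF factors, was found in 2 of the 19 and in 0.779% of all. A match is a description of these letters and not a measured binding site. Only the promoters with a match, those of Vpreb3, Cd22 and Chst3, are shown. Each is printed 5′ to 3′ on the gene's strand with the match in capitals.
Vpreb3 (GRCm38.p6, chr10:75948050-75948299, plus strand, octamer read from the other strand): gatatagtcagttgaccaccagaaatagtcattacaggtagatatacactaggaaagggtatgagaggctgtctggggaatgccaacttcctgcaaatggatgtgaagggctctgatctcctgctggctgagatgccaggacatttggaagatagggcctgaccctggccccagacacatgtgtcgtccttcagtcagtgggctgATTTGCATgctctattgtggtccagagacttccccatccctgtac
Cd22 (GRCm38.p6, chr7:30879029-30879278, minus strand, EBF palindrome): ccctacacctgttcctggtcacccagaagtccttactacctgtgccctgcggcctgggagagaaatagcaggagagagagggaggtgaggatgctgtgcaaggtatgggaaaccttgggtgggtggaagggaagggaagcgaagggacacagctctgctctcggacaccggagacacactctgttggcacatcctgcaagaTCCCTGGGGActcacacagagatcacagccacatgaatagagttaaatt
Chst3 (GRCm38.p6, chr10:60219261-60219510, minus strand, EBF palindrome): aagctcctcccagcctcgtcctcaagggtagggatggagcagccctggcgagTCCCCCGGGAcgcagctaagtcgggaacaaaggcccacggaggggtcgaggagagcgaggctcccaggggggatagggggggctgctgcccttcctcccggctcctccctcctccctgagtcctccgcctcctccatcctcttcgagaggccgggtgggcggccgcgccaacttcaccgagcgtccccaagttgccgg
The octamer of Vpreb3 begins 45 bases before the annotated start, and the palindromes of Cd22 and Chst3 begin 49 and 198 bases before theirs. These starts are not the outermost ones, as each printed stretch lies inside the annotated span of its gene. The spans are 75943024 to 75949657 for Vpreb3, 30865404 to 30880342 for Cd22 and 60181527 to 60222114 for Chst3.

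B cells were shallow. The 302 WT cells had a median of 1697.5 UMIs (quartiles 1442 and 2087) and 760.5 genes, and the 38 KO cells had 1464 UMIs and 692.5 genes. T cells of the same libraries had medians of 2846 and 2439 UMIs, and myeloid cells 7295 and 5984. The B cells summed to 639074 UMIs in WT and 78200 in KO. Mitochondrial genes held a median of 4.24% and 4.77% of a B cell's UMIs. Of the B cell barcodes, 1 occurred in both libraries, and 4 WT ones were also kept as some cell in the KO library.

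Some gated barcodes carried markers of other cells, and they weigh on sums. The barcode with the most UMIs in WT held 62929 UMIs, 9.85% of all WT B cell UMIs. It had 694 UMIs of the melanoma genes Pmel, Mlana, Dct and Tyrp1, 2 UMIs of Cd79a and none of any immunoglobulin constant gene. Another WT barcode, of 3372 UMIs, held 262 UMIs of neutrophil genes. In KO a barcode of 11974 UMIs, 15.3% of the KO B cell UMIs, held 27 UMIs of the dendritic cell gene Cd209a beside 8 of Ighm. Taken by marker thresholds set after seeing the data, 16 WT barcodes with 17.2% of the UMIs and 1 KO barcode carried such markers. Levels as UMIs of a gene per 1000000 UMIs of the class (CPM) are therefore given also without them where that matters, while shares of cells weigh each barcode equally.

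The label was checked on markers outside the gate. Ighd, Ebf1 and Fcmr, which the gate did not use, were found in 57.0%, 85.4% and 45.4% of WT B cells. Among T cell markers, 12 UMIs of 9 genes were found in all WT B cells, 4 of them at 0, among these Cd3d, Cd3e and Cd3g by the gate. NK cell markers held 2 UMIs, with 4 of 5 genes at 0, Ncr1 among them, and conventional dendritic cell markers 5 UMIs, with Xcr1 and Clec9a at 0. Macrophage markers outside the gates, that is without Csf1r and Lyz2, summed to 333 CPM and to 253 CPM without the barcodes above. The same 5 genes were at 8718 CPM in WT myeloid cells and 3202 CPM in empty droplets (barcodes of 10 to 100 UMIs, which hold free RNA). Neutrophil markers summed to 1350 CPM and to 223 CPM without the barcodes above, against 5438 CPM in empty droplets. At the edge of the gate, the 48 WT cells with a sum of exactly 2 had Ighm in 79.2% and Ebf1 in 85.4%. The 31 cells just outside, with a sum of 1, had them in 58.1% and 45.2%, and had S100a9 in 38.7% against 14.6% just inside.

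The deleted gene was looked at first. In the B cells Atpif1 (GRCm38.p6 chromosome 4, 132530555 to 132535450, ENSMUSG00000054428) held 119 UMIs in WT, 186 CPM (154 to 223), and 18 UMIs in KO, 230 CPM (136 to 364). The log2 ratio of KO over WT was 0.31 (-0.50 to 1.03), so the KO level was not below that of WT. Empty droplets held more of it than the B cells did, 537 CPM in WT and 577 CPM in KO. The level checks nothing if the counted 5′ end lies outside the deleted part, so the directions below take the genotype from the label.

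The next question was how large a part of the leukocytes the B cells were. They made up 6.91% (6.18 to 7.70) of the kept WT cells and 1.18% (0.839 to 1.62) of the kept KO cells, a log2 ratio of -2.55 (-3.07 to -2.06), or a share 5.84 times larger in WT. There were 47.3 B cells per 100 T cells in WT and 4.52 in KO. Other gated classes moved as well. Neutrophils were 9.95% and 0.498%, plasmacytoid dendritic cells (pDC) 2.15% and 0.654%, T cells 14.6% and 26.2%, and myeloid cells 41.1% and 43.5%. With neutrophils taken out of the denominator, B cells were 7.67% and 1.19%. Each share stands on 1 pool of mice, and the spread between mice was not measured.

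**Figure D1:**
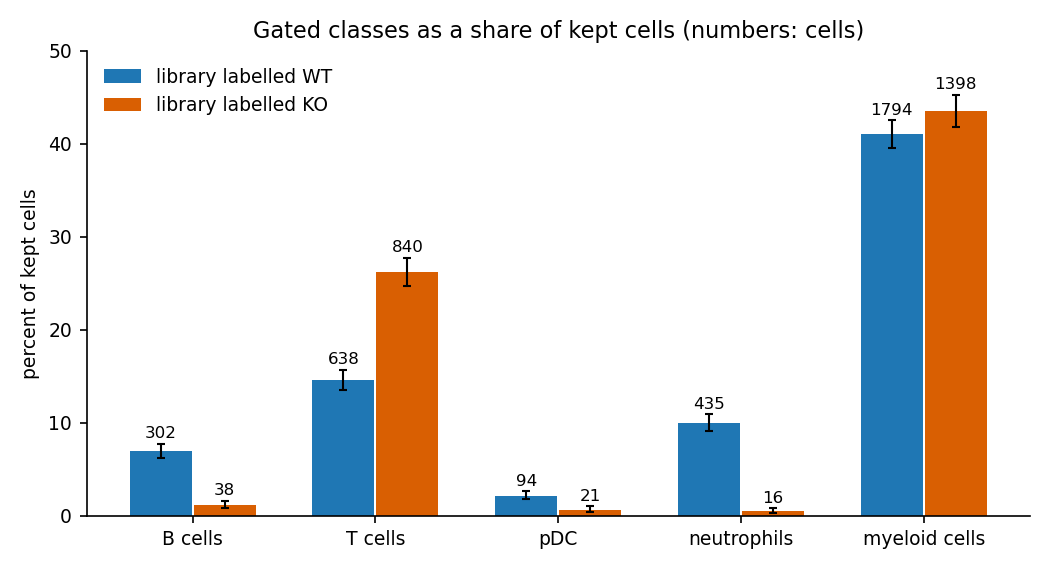
Share of kept cells (vertical axis, percent) in each gated class for the library labelled WT and the library labelled KO, with exact Clopper-Pearson 95% intervals for counting error and the number of cells above each bar. B cells were 6.91% in WT and 1.18% in KO, while myeloid cells differed little, 41.1% and 43.5%.

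Gene levels were then set side by side for the WT B cells and the T cells, pDC and myeloid cells of the same library, which share its free RNA. Genes at least 2-fold higher in B cells than in all 3 classes numbered 327 of the 5792 with 20 or more UMIs in each pair of classes (5.65%). The highest of them, taken by rule, were genes of the B cell programme. Fcmr, the receptor for the constant part of IgM, held 213 UMIs in B cells and 4 in the 1794 myeloid cells. Vpreb3, made by immature and mature B cells, held 102 UMIs against 2 in myeloid cells. Both were at 0 in T cells and pDC.

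Transcription factors stood out among them. Ebf1, which specifies the lineage (ENSMUSG00000057098, chromosome 11, 44618100 to 45008096), was at 1081 CPM (1002 to 1165) in B cells, 1.34 CPM in T cells, 0.459 CPM in myeloid cells and without a UMI in pDC. Pax5, which keeps cells in the lineage, was at 243 CPM (206 to 284) against 0.445 CPM in T cells. Pou2af1, the coactivator of the OCT factors, was at 178 CPM against 1.78 CPM in T cells. Over the whole list of B lineage transcription factors, 10 of 18 members were at least 2-fold higher than in T cells (15% of all genes compared were) and none was at least 2-fold lower (11.4%). Against pDC 11 were higher (12.7% of all genes) and 4 lower (17.9%), and against myeloid cells 15 were higher (20.2%) and 1 lower (19.6%). Spib and Irf8, factors that pDC also use, were lower than in pDC: Spib was at 124 CPM against 326 CPM, and Irf8 at 264 CPM against 2204 CPM.

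**Figure D2:**
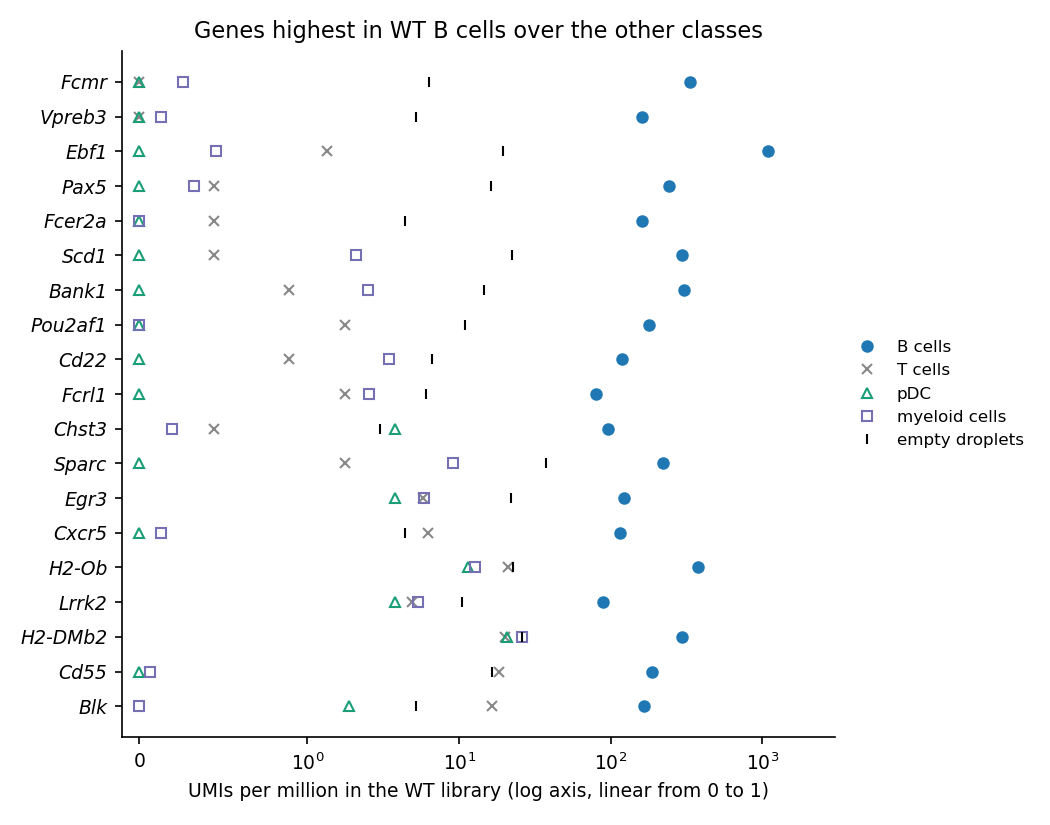
CPM (horizontal axis, logarithmic above 1 and linear from 0 to 1) of 19 of the 20 genes with the highest ratio of WT B cells over the other gated classes, in WT B cells, T cells, pDC, myeloid cells and empty droplets. Filled circles of B cells lie to the right of every other mark, from 79.8 CPM for Fcrl1 to 1081 CPM for Ebf1.

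Other genes of the set act at the membrane or in metabolism. Bank1 (304 CPM), an adaptor of receptor signalling, Blk (166 CPM), a Src-family kinase, and Cd22 (119 CPM) and Fcrl1 (79.8 CPM), modulators of the receptor, were found in 15.2% to 44.0% of B cells. Scd1, a desaturase of fatty acids, was at 294 CPM in 41.4% of B cells, against 2.10 CPM in myeloid cells. Chst3, a sulfotransferase of chondroitin chains, was at 95.5 CPM in 17.9% of B cells and 3.79 CPM in pDC. Lrrk2, a large kinase, was found in 17.5%, and Cd55, a regulator of complement, in 29.8%. Sparc entered the set by its sum alone: its 142 UMIs lay in 0.993% of B cells, 73 UMIs were left without the barcodes carrying markers of other cells, and it had no UMI in KO.

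The receptor itself was measured in most cells. Ighm, the constant gene of IgM, held 1178 UMIs in 88.4% of WT B cells, and Ighd, that of IgD, held 328 UMIs in 57.0%. After each cell was thinned to 1000 UMIs, Ighm was found in 77.2% (72.0 to 81.8) of B cells and 7.99% of T cells, and Ighd in 39.4% (33.9 to 45.2) and 0.313%. Igkc, the constant gene of the kappa light chain, was found in 77.8% (72.7 to 82.4) of thinned B cells and 1.41% of thinned T cells. In WT T cells Ighm was at 74.8 CPM and Igkc at 13.4 CPM, against 119 and 64.8 CPM in WT empty droplets. The source of these UMIs in T cells was not tested. Of the 6 receptor genes that the gate did not use, 6 were at least 2-fold higher in B cells than in T cells (15% of all genes compared were) and in myeloid cells (20.2%), and 5 than in pDC (12.7%). The exception was Iglc3, at 518 CPM in B cells and 674 CPM in pDC. Ighm stood at 905 CPM in pDC.

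Signalling genes downstream of the receptor were partly shared with other cells. Of 19, 14 were at least 2-fold higher than in T cells (15% of all genes), 10 than in myeloid cells (20.2%) and 8 than in pDC (12.7%). The 4 that were at least 2-fold lower than in pDC are close to the share of all genes (17.9%). Syk, the kinase recruited by the receptor, was at 286 CPM, against 21.4 CPM in T cells and 167 CPM in pDC. Blnk, the linker protein of B cells, was at 188 CPM and was higher in pDC, at 288 CPM. Ralgps2, an exchange factor for Ral, was at 296 CPM in B cells and 37.9 CPM in pDC. Among inhibitory receptors and phosphatases, Siglecg was at 116 CPM against 0.445 CPM in T cells. Fcgr2b was at 67.3 CPM, below myeloid cells (432 CPM) and empty droplets (208 CPM), and Lair1 had no UMI.

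Class switching was rare. A UMI of an IgG or IgA constant gene was found in 6 of 302 WT B cells, 1.99% (0.733 to 4.27), 3 of which had no Ighm or Ighd UMI. IgA accounted for 3 of these cells and IgG for the other 3, among them a cell with 11 UMIs of Ighg1. Another of the IgG cells, with 4 UMIs of Ighg2c and none of Ighm or Ighd, was among the barcodes with markers of other cells. A further 21 WT B cells had no heavy chain constant UMI at all, so at this depth a missing chain does not show its absence from a cell.

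The light chains showed an unequal pairing of variable and constant genes. A mature B cell uses either kappa or lambda chains. Igkv segments, the variable part of kappa, were found in 276 of 302 WT B cells (91.4%; 87.6 to 94.3), and Iglv segments in 24 (7.95%; 5.16 to 11.6). Only 8 cells (2.65%) held more Iglv than Igkv UMIs. Constant genes of lambda were nevertheless found in most cells: Iglc2 (chromosome 16, 19198536 to 19198852) in 63.9%, Iglc3 (chromosome 16, 19065365 to 19065681) in 57.0% and Iglc1 in 15.2%. In 223 cells (73.8%; 68.5 to 78.7) both Igkc and a lambda constant gene had a UMI.

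The pairing did not follow the variable segment. In the 257 WT B cells with Igkv and no Iglv, Iglc1, Iglc2 or Iglc3 was found in 83.7% (78.6 to 88.0), Iglc2 in 65.4% (59.2 to 71.2) and Iglc3 in 59.9% (53.7 to 66.0). Their mean counts were 3.82 UMIs of Igkc and 3.01 UMIs of the 3 lambda constant genes together. In WT T cells, which were deeper, any of the 3 was found in 0.470% (0.0971 to 1.37), and empty droplets held 33.2 CPM of Iglc2 and 37.1 CPM of Iglc3, against 717 and 535 CPM in those B cells. In the 8 cells with more Iglv than Igkv, Iglc2 was found in 6 and Igkc in 1. Thus Igkc followed the kappa segments, while lambda constant UMIs did not need a lambda segment. Iglc2 and Iglc3 are near-identical copies whose reads could be split either way by the counting, so their order is uncertain while their sum is less so. No immunoglobulin library was analysed here, and which transcripts carry these constant genes was not tested.

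**Figure D3:**
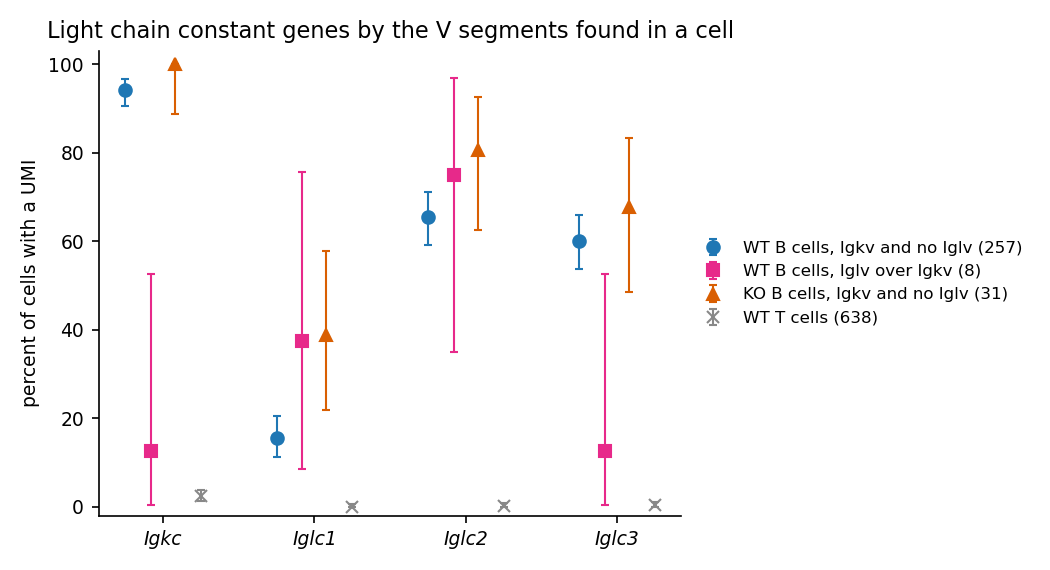
Percent of cells with a UMI (vertical axis) of each light chain constant gene, for WT B cells with Igkv and no Iglv UMI, WT B cells with more Iglv than Igkv UMIs, KO B cells with Igkv and no Iglv UMI, and WT T cells, with exact Clopper-Pearson 95% intervals and cell numbers in the key. Iglc2 was found in 65.4% of the 257 kappa WT cells and in 0.157% of the 638 T cells.

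The kappa repertoire was diverse. Of 222 WT B cells with at least 3 Igkv UMIs, 184 (82.9%) had at least 80% of them from 1 segment, and the median was 100%. These cells used 68 different leading segments. The commonest, Igkv1-117 and Igkv1-135, led in 14 cells each, 6.31% (3.49 to 10.4). No segment therefore dominated, although reads of near-identical segments can be assigned to either. Ighv segments had 149 UMIs in 96 cells, and in the 9 cells with at least 3 UMIs the leading segments numbered 9. KO cells gave 18 leading Igkv segments in 25 cells, with Igkv1-117 leading in 3.

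Genes of resting follicular B cells marked the WT cells. The 8 members of that list were all at least 2-fold higher than in T cells (15% of all genes) and in myeloid cells (20.2%), with a median log2 ratio over T cells of 4.72 (0.19 over all genes). Against pDC 7 were higher (12.7%) and 1 was lower (17.9%). Fcer2a, the low-affinity IgE receptor CD23 of follicular B cells, was found in 16.2% (12.3 to 20.9) of thinned B cells and in no thinned T cell. Ccr7, the receptor that guides lymphocytes into lymphoid tissue, was found in 54.6% (48.8 to 60.3) of thinned B cells and 16.6% of T cells. Cxcr5, the follicle-homing receptor, was found in 12.3% (8.77 to 16.5) and 0.784%.

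Several defining markers of other B cell stages had few or no UMIs, while other members of those lists were found. The 8 germinal centre genes summed to 43.8 CPM, below empty droplets (123 CPM), with Bcl6 in 3.97% of cells. Jchain, the joining chain of secreted IgM and IgA, had no UMI. By the limit of 3 counts set for a count of 0, up to 0.993% of the 302 cells could have held a UMI; this does not limit how many express the gene. Prdm1 and Sdc1 of plasma cells had 4 and 1. The plasma cell list nevertheless summed to 487 CPM, against 227 CPM in empty droplets, most of it from Mzb1, a chaperone of immunoglobulin assembly at 241 CPM, and from Irf4 at 171 CPM. Irf4, which activated B cells also make, was found in 16.9% of thinned cells against 5.02% of T cells. Rag1, Rag2 and Igll1 of B cell precursors had no UMI and Cd93 of transitional cells had 2. Other members of the transitional and early list were found. Cd24a was found in 25.2% of thinned B cells and 1.88% of T cells, and Vpreb3 in 15.6% and in no T cell. Of 3 members compared, 2 were at least 2-fold higher than in T cells (15% of all genes) and 1 lower (11.4%). The list summed to 473 CPM, against 403 CPM in empty droplets. Cd5 and Spn, markers of B-1 cells, had 1 and 4 UMIs, and Cd1d1 and S1pr3, of marginal zone cells, 2 and 1. The marginal zone list as a whole summed to 498 CPM, against 279 CPM in empty droplets, and 4 of the 6 members compared were at least 2-fold higher than in T cells (15% of all genes). These 4 were Mzb1, Dtx1, Notch2 and Cr2, the complement receptor that follicular cells also carry. Dtx1, a target of Notch2 in marginal zone cells, was found in 6.29% (3.83 to 9.65) of thinned B cells and 1.41% of T cells.

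**Figure D4:**
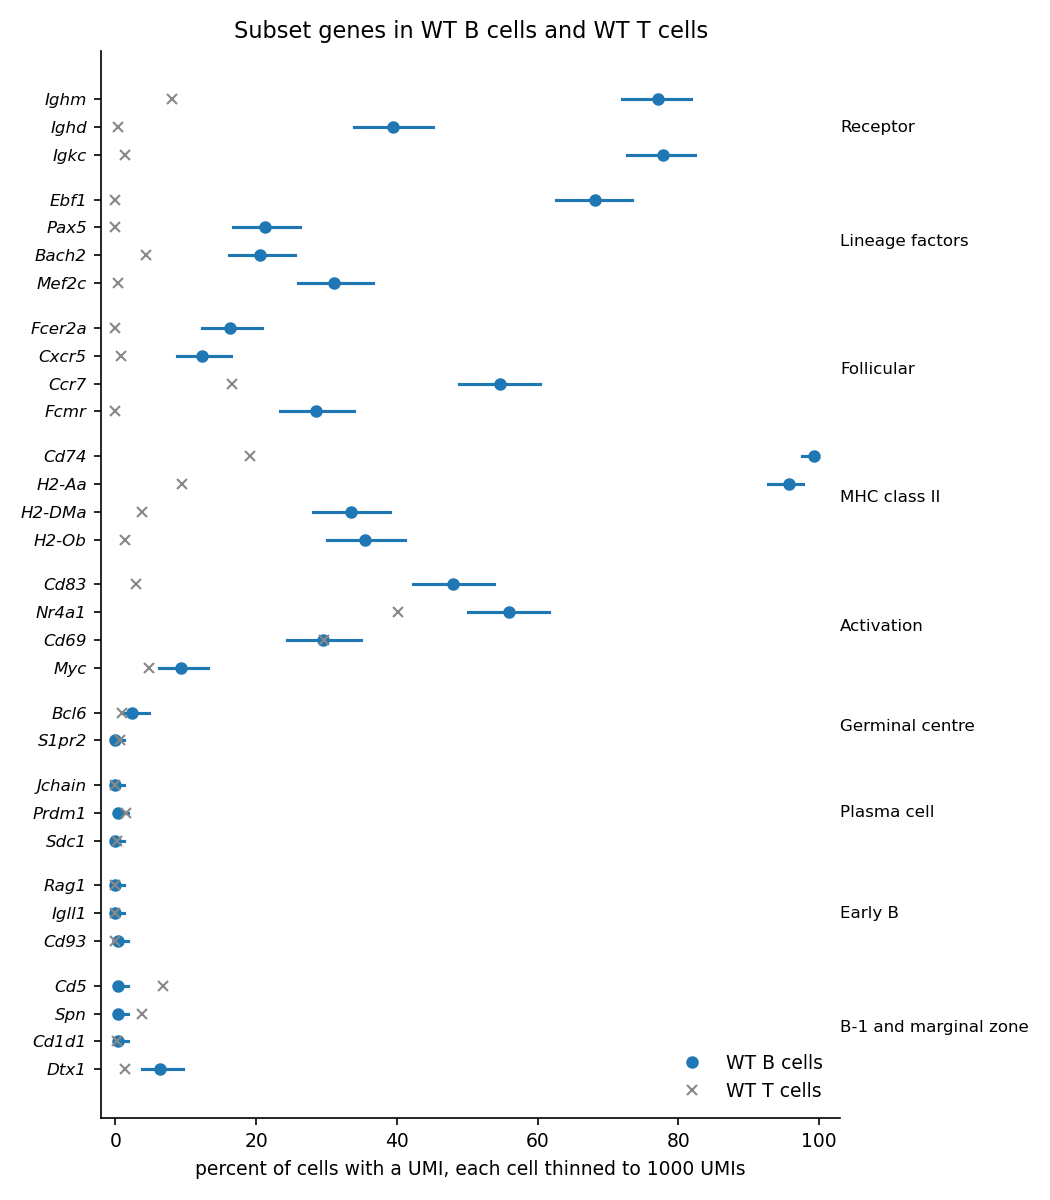
Percent of cells with a UMI (horizontal axis) after thinning each cell to 1000 UMIs, for WT B cells (circles, with exact Clopper-Pearson 95% intervals) and WT T cells (crosses), for genes grouped by the B cell stage or function they mark. Receptor, lineage, follicular and MHC class II genes lie to the right of the T cells, while Jchain, Rag1 and Cd5 lie near 0 and Dtx1 is at 6.29%.

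Survival receptors were found in a minority of cells, while homing receptors ranged more widely. Tnfrsf13c, the BAFF receptor that keeps mature B cells alive, was found in 10.3% of thinned B cells and 0.627% of T cells. Tnfrsf13b and Cd40 were found in 3.31% and 5.63%, and Tnfrsf17, the receptor of plasma cells, had no UMI. Ltb, whose product shapes lymphoid tissue, was found in 29.8% of thinned B cells and 27.7% of T cells. Cxcr4 was found in 41.1% and 24.5%, and S1pr1, needed to leave tissue, in 9.60% and 5.80%. Of 14 trafficking receptors compared with T cells, 5 were at least 2-fold higher (15% of all genes) and 4 at least 2-fold lower (11.4%). Toll-like receptors themselves were sparse, with 2 UMIs of Tlr9 and 5 of Tlr7. Unc93b1 and Ly86, listed with them as partner genes of this receptor family, were found in 17.5% and 20.9% of thinned B cells.

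The most abundant antigen presentation genes were found in most B cells. Cd74 was found in 99.3%, H2-Aa in 95.7%, H2-Eb1 in 90.4% and H2-Ab1 in 87.1% of thinned WT cells. Other genes of MHC class II and its loading were found in fewer, from 7.28% for Ciita to 35.4% for H2-Ob. The 11 genes of MHC class II and its loading summed to 24620 CPM in WT B cells, 16088 CPM in myeloid cells, 13804 CPM in pDC and 6249 CPM in T cells. Per cell thinned to 1000 UMIs, the mean was 28.2 UMIs in B cells (5% of cells below 12 and 5% above 46) and 16.0 in myeloid cells, where the median was 3. Of the B cells 0.331% held none of these genes, and of the myeloid cells 28.0%. H2-Oa and H2-Ob, which encode the B cell modulator of peptide loading, were at 196 and 376 CPM, against 11.1 and 12.8 CPM in myeloid cells. H2-DMb1 went the other way, at 106 CPM against 284 CPM in myeloid cells, while its neighbour H2-DMb2 was at 294 CPM against 25.9 CPM. These are close paralogs, so the split between them is uncertain. Costimulatory genes were low: Cd86 was found in 4.30% and Cd80 in 0.993% of thinned B cells.

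Several genes of a B cell activation list were found in many WT B cells. Of its 13 genes, 4 were at least 2-fold higher than in T cells (15% of all genes) and 2 lower (11.4%). Cd83, a membrane protein induced by activation, was found in 48.0% (42.3 to 53.8) of thinned B cells and 2.98% of T cells. Nr4a1, an immediate target of antigen receptor signals, was found in 56.0% (50.2 to 61.6) and 40.1%. Egr3 was found in 10.6% and 0.470%, and Cd69 in 29.5% and 29.6%. Others went the other way, Nfkbia with 46.7% and 64.6% and Tnfaip3 with 9.60% and 40.9%. The activation list as a whole averaged 4.60 UMIs per thinned B cell, 4.51 per T cell, 4.53 per myeloid cell and 11.8 per pDC, so by this mean B cells were close to T and myeloid cells and below pDC. The 15 genes of immediate early response and dissociation stress averaged 13.6 UMIs per thinned B cell and 13.1 per T cell, and the part of tissue digestion in any of these genes was not tested. Cell cycle genes averaged 0.344 UMIs per thinned cell, with none in 72.5% of B cells, and Mki67 had 6 UMIs in 4 of them.

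Interferon response genes were low in WT B cells. The 31 genes summed to 1330 CPM, against 2338 CPM in T cells, 2845 CPM in myeloid cells, 5365 CPM in pDC and 2463 CPM in empty droplets. Of 28 compared with T cells, 15 were at least 2-fold lower (11.4% of all genes) and 1 higher (15%). Isg15 was at 36.0 CPM in B cells and 295 CPM in T cells. Glycolysis genes were also low once barcodes with markers of other cells were left out, at 1845 CPM in place of 3693 CPM, against 3741 CPM in T cells and 10551 CPM in myeloid cells. The part of these levels that is free RNA was not tested gene by gene.

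Among the WT B cells the genes that varied most beyond counting were few. The ratio of variance to mean of thinned UMIs, which is 1 for pure counting, had a median of 1.05 over 815 genes found in at least 10 cells, and 10 genes were at 2 or more. Ly6d, a surface protein of the lymphoid lineage, was first at 3.12, found in 61.6% of cells with up to 26 UMIs. Jund followed at 2.93, Hspe1 at 2.60, Klf2 at 2.57, Hspa8 at 2.45 and Cd74 at 2.30. Hspe1, Hspa8, Hsph1 (2.14) and Hsp90ab1 (2.03) encode heat shock proteins and chaperones. Myc (2.21) and Nr4a1 (2.06) are response genes, Myc being found in 9.27% of thinned cells. Vpreb3 stood at 1.99, found in 15.6% of cells with up to 8 UMIs. Without barcodes carrying markers of other cells, 11 genes were at 2 or more, and Ly6d was at 3.12.

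WT cells were also set side by side by an Ighd UMI after thinning. Thinning hides the gene in part of the cells, since Ighd was found in 119 of 302 thinned cells and in 172 at full depth. The 119 thinned cells with an Ighd UMI and the 183 without had shares of Fcer2a (18.5% and 14.8%), Ccr7 (54.6% and 54.6%), Vpreb3 (14.3% and 16.4%) and Ebf1 (69.7% and 67.2%). Ly6d was found in 69.7% (60.7 to 77.8) and 56.3% (48.8 to 63.6). Nr4a1 went the other way, with 48.7% (39.5 to 58.1) and 60.7% (53.2 to 67.8). The intervals of Ly6d overlap, as do those of Nr4a1.

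KO and WT were last compared within the B cells. The comparison stands on 38 KO cells, so only abundant genes carry information. Of 4178 genes with at least 20 UMIs over both libraries, 778 were at least 1.5-fold higher in KO (18.6%) and 1051 at least 1.5-fold lower (25.2%). Without the barcodes carrying markers of other cells, 684 of 3568 were higher (19.2%) and 892 lower (25%). Such folds are common at these counts and are a rule of size, not a test.

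Receptor genes were level or higher in KO B cells. Ighm stood at 1843 CPM in WT and 1880 CPM in KO, a log2 ratio of 0.03 (-0.23 to 0.28), and Ighd at 513 and 396 CPM, -0.37 (-0.95 to 0.16). Of the 6 receptor genes that the gate did not use, 2 were at least 1.5-fold higher in KO and none lower (18.6% and 25.2% of all genes), with a median of 0.52 (-0.10 over all genes). Iglc1 was found in 9.27% (6.25 to 13.1) of thinned WT and 34.2% (19.6 to 51.4) of thinned KO B cells, with 5.22 and 66.6 CPM in the empty droplets of the libraries. Iglc2 was found in 49.0% and 60.5% of thinned cells. Cd79b, at 618 and 1151 CPM, and Ms4a1, at 355 and 793 CPM, were used by the gate, whose sum had a median of 5 UMIs in WT and 7.5 in KO. In KO 31 cells had Igkv and no Iglv, and a lambda constant gene was found in 93.5% (78.6 to 99.2) of them.

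Genes furthest above WT in the KO B cells included surface proteins of lymphocytes. Cd52 was at 1206 CPM in WT and 3798 CPM in KO, a log2 ratio of 1.65 (1.46 to 1.85), but was found in 71.2% and 71.1% of thinned cells, with 885 and 1433 CPM in the empty droplets. Its log2 ratio was 0.71 (0.42 to 0.98) without the 5% of B cells with the most UMIs and 1.04 (0.71 to 1.36) with cells thinned before gating. Ly6a, which interferon induces, was at 177 and 716 CPM, 2.02 (1.53 to 2.49), found in 11.9% (8.49 to 16.1) and 34.2% (19.6 to 51.4) of thinned cells, with 83.2 and 399 CPM in empty droplets. Ly6d was at 1181 and 2187 CPM, 0.89 (0.64 to 1.13), with 61.2 and 24.0 CPM in empty droplets. Plac8 and Coro1a had log2 ratios of 1.48 (1.10 to 1.85) and 0.93 (0.62 to 1.24). That of Plac8 was 0.59 (0.04 to 1.10) without the deepest 5% of B cells and 0.58 (-0.17 to 1.27) with cells thinned before gating. Atf3 and Hspa1a rested on the KO barcode with dendritic cell markers: their log2 ratios went from 1.64 and 1.07 to -0.34 (-1.38 to 0.56) and 0.02 (-0.50 to 0.51) without barcodes carrying markers of other cells.

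Genes furthest below WT held Cd83 and the chromatin organiser Satb1. Cd83 was at 737 CPM in WT and 269 CPM in KO, -1.46 (-2.16 to -0.83), and was found in 48.0% (42.3 to 53.8) and 26.3% (13.4 to 43.1) of thinned cells. Satb1 was at 352 and 76.7 CPM, -2.20 (-3.66 to -1.05), found in 31.1% (25.9 to 36.7) and 13.2% (4.41 to 28.1) of thinned cells, and its log2 ratio was -1.61 (-3.52 to -0.20) with cells thinned before gating. Hspa4, a chaperone, held 124 UMIs in WT and 1 in KO, and Rasgef1b, an exchange factor, 118 and 2. Ptgds, Mlana, Gpnmb and Pmel, with no UMI in KO, lay mostly in the WT barcodes with markers of other cells, of which 1 had melanoma markers. Without those barcodes their WT sums were 9, 7, 3 and 6 UMIs, so no fold is given.

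**Figure D5:**
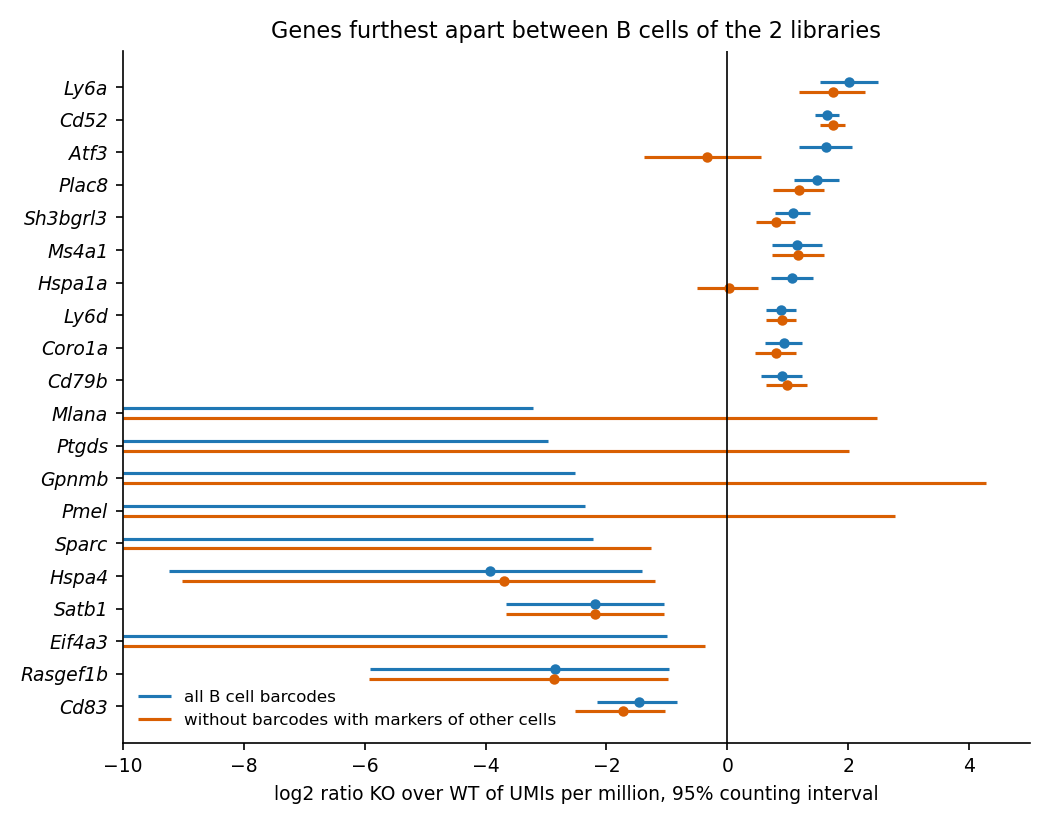
Log2 ratio of KO over WT (horizontal axis) of the CPM in B cells for the 10 genes furthest above and the 10 furthest below 0 by the bound of the interval nearest 0, with all barcodes and without barcodes carrying markers of other cells; lines are 95% counting intervals, drawn to the edge where a bound is infinite, and points are left out where KO had no UMI. Intervals of Atf3, Hspa1a, Mlana, Ptgds, Gpnmb and Pmel take in 0 without those barcodes, while those of Cd83 and Satb1 stay below it.

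Most genes of the activation list were lower in KO B cells. Of its 13 genes, 9 were at least 1.5-fold lower (25.2% of all genes) and 2 higher (18.6%), with a median log2 ratio of -0.97 (-0.10 over all genes). The median was -0.34 over the fewer cells with at least 2000 UMIs and 800 genes. Without barcodes carrying markers of other cells, 9 of 11 were lower and 1 higher, with a median of -1.08 (-0.05 over all genes). Nr4a1 was at 1116 CPM in WT and 627 CPM in KO, -0.83 (-1.28 to -0.41), Nfkbid at 261 and 115 CPM, -1.18 (-2.34 to -0.22), and Myc at 139 and 38.4 CPM, -1.86 (-4.16 to -0.27). Egr3, at 122 and 51.2 CPM, and Cd69, at 324 and 205 CPM, had intervals that reach 0. The exceptions above 0 by the rule were Ccl4 and Egr2, whose CPM in WT B cells was below that of empty droplets. The same held for Ccl3 and Nfkbia among the 9 lower genes. These were at 75.1 and 734 CPM in WT B cells, against 812 and 1308 CPM in WT empty droplets. A thinned B cell held a mean of 4.60 UMIs of the list in WT and 2.47 in KO (medians 4 and 1). In T cells the means were 4.51 and 4.21, in myeloid cells 4.53 and 2.94 and in pDC 11.8 and 18.3. Free RNA moved the same way, 5252 CPM of the list in the WT and 2913 CPM in the KO empty droplets. With the empty droplet profile subtracted by S100a8 and S100a9 the median was -1.09, and -1.07 when barcodes with markers of other cells were also left out.

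Follicular and lineage genes gave a mixed picture. Ccr7 was at 1019 CPM in WT and 627 CPM in KO, -0.70 (-1.15 to -0.28), and Ebf1 at 1081 and 703 CPM, -0.62 (-1.04 to -0.22), with Ebf1 in 68.2% (62.6 to 73.4) and 52.6% (35.8 to 69.0) of thinned cells. Pax5 was at 243 and 294 CPM, 0.28 (-0.42 to 0.92), and Fcmr at 333 and 307 CPM, -0.12 (-0.79 to 0.49). Vpreb3 was at 160 and 332 CPM, 1.06 (0.38 to 1.69). Of 18 lineage factors 2 were at least 1.5-fold higher and 3 lower, and of 8 follicular genes 1 was higher and 3 lower, against 18.6% and 25.2% of all genes.

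Among interferon response genes, the direction between the libraries depended on the depth at which cells were gated. Of 10 with enough UMIs out of 31, 6 were at least 1.5-fold higher in KO and 1 lower (18.6% and 25.2% of all genes), with a median of 0.88, but the median was -0.16 when cells were thinned to 1000 UMIs before gating. Without barcodes carrying markers of other cells 5 of 9 were higher, with a median of 0.66. With all barcodes Isg15, a ubiquitin-like protein that interferon induces, was at 36.0 and 128 CPM, 1.83 (0.59 to 2.96). This difference rested largely on the KO barcode with dendritic cell markers. Isg15 was at 37.8 CPM in WT and 45.3 CPM in KO without barcodes carrying markers of other cells. A thinned B cell held a mean of 1.41 UMIs of the list in WT and 2.39 in KO. T cells held 2.38 and 3.67 and myeloid cells 3.21 and 7.17, and empty droplets held 2463 and 4696 CPM. With the empty droplet profile subtracted by S100a8 and S100a9, which put free RNA at 26.0% of the WT and 4.72% of the KO B cell UMIs, the median was 1.80. Without barcodes carrying markers of other cells these estimates were 3.92% and 5.58%, and the median after subtraction was 0.63.

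MHC class II genes were close between the libraries. Cd74, the invariant chain, was at 13490 and 17276 CPM, a log2 ratio of 0.36 (0.27 to 0.44), and H2-Aa at 4167 and 4271 CPM, 0.04 (-0.13 to 0.20). Both were lower in KO without barcodes carrying markers of other cells. Cd74 was then at 15242.4 CPM in WT and 13846.5 CPM in KO, and H2-Aa at 4692 and 3473 CPM. The median log2 ratio of the list went from 0.355 to -0.048. Of 11 genes 3 were at least 1.5-fold higher and none lower (18.6% and 25.2% of all genes), and without barcodes carrying markers of other cells none was higher and 1 was lower. Thinned cells held a mean of 28.2 UMIs of the list in WT and 27.5 in KO.

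Genes of the ATP synthase, which the targeted protein inhibits, showed no common direction. Of 15 with Atpif1, none was at least 1.5-fold higher and 3 were lower, with a median of -0.01. Without barcodes carrying markers of other cells 3 were higher and none lower, with a median of 0.17. Glycolysis genes turned in the same way, from 6 of 12 lower and none higher to 2 of 11 higher and 2 lower. Gapdh went from 1676 to 699 CPM in WT when those barcodes were left out.

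Switched cells were 5 of 38 in KO, 13.2% (4.41 to 28.1), against 1.99% (0.733 to 4.27) in WT. All 5 lacked Ighm and Ighd UMIs. Igha had a UMI in 4 of them and an IgG gene in 4, so some held both classes. Whether such barcodes hold more than 1 cell or free RNA was not tested. The KO cell with the most Igha, of 6169 UMIs, held 28 UMIs of Igha, 2 of Ighg2b, 8 of Jchain and 7 of Ms4a1. It also held 62 UMIs of Igkv segments, and no Ighm. In T cells of the 2 libraries a switched constant gene was found in 0.470% and 0.714%.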

How the data were processed

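UMI counts per gene and barcode were deposited by the authors as raw matrices of 31053 genes and 737280 barcodes per library, and per the file headers Cell Ranger 3.1.0 wrote them. The submitters' processing notes list mm10, R 3.6.1 and Seurat 3.2.0 without saying what each was used for. The deposited contig tables of the T cell receptor libraries hold counts of UMIs and reads, and how they were assembled is not given in the sources used here.

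Barcodes with at least 1000 UMIs, at least 500 genes and at most 10% mitochondrial UMIs were kept, 4370 in WT and 3211 in KO, of libraries of 35152477 and 24385843 UMIs. No doublet caller was run. The gate on marker UMIs barred any UMI of Cd3d, Cd3e, Cd3g, Siglech or Csf1r and more than 1 of Lyz2. It did not remove every mixed barcode, as 8 WT barcodes that passed held at least 5 macrophage marker UMIs. In 2 alternatives the deepest 5% of B cells or barcodes with markers of other cells were left out. Such markers were at least 3 melanoma or dendritic cell, or 5 neutrophil or macrophage UMIs, thresholds set after seeing the data. T cells had at least 2 Cd3d, Cd3e and Cd3g UMIs, pDC at least 2 of Siglech, neutrophils at least 10 of S100a8 and S100a9 with Csf3r, and myeloid cells at least 3 of Csf1r and Lyz2, all without Cd79a. UMIs were summed per class and library and divided by the class total (CPM), with exact Poisson intervals. Ratios have exact conditional binomial intervals and shares exact Clopper-Pearson intervals, at the 95% level, for counting error only. A count of 0 was set to 3 counts for a ratio. Empty droplets are barcodes of 10 to 100 UMIs. Comparisons of detection thinned each cell to 1000 UMIs (seed 1). Genes with at least 20 UMIs over the groups compared were counted at 1.5-fold between libraries and 2-fold between classes.

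Named genes are members of 33 lists, the 20 genes highest in WT B cells over the other classes, the 15 most variable and the 10 highest and 10 lowest of KO over WT. The last 3 sets needed at least 50 UMIs and a CPM above empty droplets, without gate genes (first 2 of these sets), receptor segments, ribosomal, mitochondrial and unnamed gene models. The members, gates and lists were chosen with earlier results of these data known. Of 345 gene names, 342 matched the RefSeq table of GRCm38.p6 once, which gave coordinates. Atp5o, Atp5md and Atp5mpl did not match 1 gene each in the deposited matrices and were left out. Results on 4 genes are not reported here. Python 3.11.15, numpy 2.4.6, pandas 2.3.3, scipy 1.17.1 and matplotlib 3.10.9 were used, and the ratios were tested on simulated data.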

Additional observations from a re-analysis of the deposited data

Results flagged for a closer look

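T cell receptor contigs were found on 42 of 302 WT B cell barcodes, 13.9% (10.2 to 18.3), a measurement outside the comparisons above. None of these barcodes had a productive contig, and a count of 0, set against 3 counts of 302, allows a share of up to 0.993%, while the exact Clopper-Pearson upper bound is 1.21%. In WT T cells 74.8% of barcodes had a contig and 57.7% a productive one, and in WT myeloid cells, which have no receptor of this kind, 36.9% had a contig and 0.390% a productive one. In KO 1 of 38 B cell barcodes had a contig and none was productive.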

How the results depend on the processing

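The ratio of the B cell share, KO over WT, stayed between -2.84 and -2.21 on the log2 scale in every alternative run. Of the summary values, 125 alternatives stayed within the counting interval of the main value (or within 1.5 times a count), 56 moved and none reversed. Of the other values, 391 stayed, 91 moved and 15 reversed. The cause of these moves was not tested, beyond the fewer cells or genes that an alternative leaves.

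With at least 2000 UMIs and 800 genes, B cells were 2.58% of WT and 0.469% of KO cells. Switched WT cells were then 4.94%, Ighm was found in 96.3%, KO cells with more Iglv than Igkv were 27.3%, and lambda constants were found in 100% of KO kappa cells. The receptor, MHC class II and activation lists were at 6544, 18699 and 3682 CPM in WT, 198 genes lay above all 3 classes, and 421 and 610 genes were higher and lower in KO. With at most 5% mitochondrial UMIs the shares were 5.70% and 0.794%, and the receptor and MHC class II lists were at 7711 and 23658 CPM. With a gate of 4 UMIs the WT share was 4.90% and those lists were at 10001 and 27664 CPM. With no Lyz2 UMI allowed the shares were 5.26% and 0.747%, and the 3 lists were at 8953, 27185 and 4523 CPM. Without the 5% of B cells with the most UMIs these 3 lists were at 9210, 28249 and 4693 CPM. With cells thinned before gating the WT share was 5.88%, Ighd was found in 42.0% of WT and 27.8% of KO cells, Ighm in 80.2% of WT cells and lambda constants in 73.9% of WT kappa cells. The 3 lists were then at 10354, 28591 and 4611 CPM, 135 genes lay above all 3 classes, and 388 and 430 were higher and lower in KO. Counting a chain from 2 UMIs, Ighd was found in 29.8% and 18.4%, Ighm in 79.5% of WT cells and lambda constants in 62.0% of WT kappa cells. With free RNA subtracted by S100a8 and S100a9 the receptor and MHC class II lists were at 10748 and 29121 CPM, and by haemoglobin, added after seeing the data, at 8641 and 25380 CPM. In KO the haemoglobin estimate failed, at 100% free RNA with little haemoglobin in the empty droplets, so its comparisons of KO with WT (671 genes lower in KO, and the values with haemoglobin below) carry no information. Without barcodes with markers of other cells, also added after seeing the data, the 3 lists were at 9232, 27784 and 4486 CPM. With at least 50 UMIs per gene 143 genes lay above all 3 classes, and 292 and 419 were higher and lower in KO, and with folds of 4 and 2 these were 119, 316 and 626.

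Median log2 ratios of KO over WT counted as reversed were those of the marginal zone list (0.072 with 2000 UMIs, 0.0062 without the deepest cells, 0.066 without barcodes with markers of other cells, 0.087 with free RNA by S100a8 and S100a9 also subtracted, 1.04 with haemoglobin), the plasma cell list (-0.39 without the deepest cells, -0.00099 without barcodes with markers of other cells, -0.0025 also subtracted) and the interferon list (-0.16 thinned before gating). Other list medians, smaller in size in the main run, also changed sign without barcodes with markers of other cells. Among these were the lists of glycolysis (-0.43 to 0.36), MHC class II (0.355 to -0.048) and immediate early genes (0.037 to -0.44). They are not part of the count of reversed values. Atf3 reversed to -0.57, -0.085, -0.34, -0.39 and -0.54 without the deepest cells, thinned, without those barcodes, also subtracted and with haemoglobin, and Hspa1a to -0.79 thinned.

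No paired analysis was possible because each genotype has 1 pooled library. Subtraction of free RNA from shares of cells was not run. At 38 cells, a KO share has an interval many points wide, and genes under about 20 UMIs carry no ratio.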

Other observations

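Cytokine genes were sparse in the WT B cells. Tgfb1 was found in 23.2% of thinned B cells and 13.9% of T cells, at 268 CPM in B cells and 269 CPM in empty droplets. Il10 and Lta had 1 and 5 UMIs, Il6 and Ifng had none, and Il12a had 3 UMIs in WT and 3 in KO. Mzb1, which marginal zone B cells and plasma cells make, was found in 24.8% (20.1 to 30.1) of thinned WT B cells and 0.157% of T cells, and it was at 206 CPM in pDC against 241 CPM in B cells.

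Haemoglobin UMIs, which B cells do not make, put free RNA at 5.03% of the WT B cell UMIs, and S100a8 with S100a9 put it at 26.0%. The haemoglobin estimate rests on only 6 UMIs in all WT B cells, so its counting error is large. Without barcodes with markers of other cells the haemoglobin estimate was 6.08% and that of S100a8 with S100a9 3.92%. In KO S100a8 and S100a9 gave 4.72% and 5.58%, while the KO empty droplets held too little haemoglobin (7.47 CPM) for an estimate.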
